A study of Mus musculus with 4 samples.

Results

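The genes *Cebpa*, *Cebpb*, *Cebpd*, *Cebpe* and *Cebpg*, which encode C/EBP transcription factors, and *Gfi1*, which encodes a zinc-finger repressor, were followed through single-cell RNA-seq of mouse bone marrow. They were chosen by name and are 6 of the 18695 genes in the count matrix, read over 8969 cells. Bone marrow was taken from young adult mice of both sexes that were either *Tet2* KO (Mx1-Cre *Tet2* fl/fl) or WT, which here means littermates that carry the same floxed *Tet2* alleles but no Cre. Every mouse, WT included, had received repeated pI:pC, the double-stranded RNA analogue that switches on the interferon-driven Mx1-Cre, and this Cre also acts outside blood stem cells. From each genotype, granulocytic-monocytic progenitors (GMP sort) and a mixture of lineage-negative progenitors and CD11b+ cells (Lin-/CD11b+ sort) were profiled, which gives 1 library per genotype and sort. The sources used here do not say which mice went into which library, and there is no replicate, so no test was possible and genotype, mouse and preparation cannot be told apart. All intervals below are exact 95% intervals that cover counting error only, and a ratio is said to be told apart from no difference where its interval leaves out 0 on the log2 scale.

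The libraries held 1258 cells (WT GMP sort), 2719 cells (*Tet2* KO GMP sort), 1924 cells (WT Lin-/CD11b+ sort) and 3068 cells (*Tet2* KO Lin-/CD11b+ sort), with median depths from 10417 to 18713 UMIs (unique transcript tags) per cell. Each library shared 16 to 21 cell barcodes with the others. A sample table of the study swaps the cell numbers of the *Tet2* KO GMP and WT Lin-/CD11b+ libraries against the deposited assignment, which was kept here: under it both GMP libraries hold 0 lymphoid-like and 0 pDC-like cells and both Lin-/CD11b+ libraries hold such cells. *Tet2* itself was read at 13.02 CPM (its UMIs scaled to a common total) in the WT GMP library, 17.0 CPM in the *Tet2* KO GMP library, 13.4 CPM in the WT Lin-/CD11b+ library and 20.7 CPM in the *Tet2* KO Lin-/CD11b+ library. Tags from the 3′ end need not cover the deleted exon, so this does not check the genotype.

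No cell annotation was used from the study, so cell types were rebuilt from marker genes that include none of the 6 members. GMP-like cells fell into mono-biased and neutro-biased ones, called by these words alone below. The gate named 7184 cells, 80.1% of the total, and left 1349 cells unnamed because they lay near a cut. Unsupervised clusters built without the members gave the same type to 81.7% of the named cells. Types with at least 50 cells in a library were used. The HSPC-like gate needs care, since its cells scored higher for neutrophil-biased progenitor genes (median scaled score 0.301) than for stem genes (0.207). In the GMP sort the HSPC-like cells carried *Elane*, a granule protease, at 2279 CPM (WT) and 3190.1 CPM (*Tet2* KO), against 590.0 and 650.0 CPM in the Lin-/CD11b+ sort. *Hlf*, a stem cell factor, was at 15.2 and 6.13 CPM in the GMP sort and at 33.1 and 38.9 CPM in the Lin-/CD11b+ sort. HSPC-like cells of the GMP sort are therefore read below as the gate's cells, not as stem cells.

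C/EBP proteins are basic leucine zipper factors that bind DNA as dimers and drive myeloid differentiation. C/EBPα is needed for progenitors to enter the granulocytic and monocytic path, C/EBPε for the later granule program of neutrophils, C/EBPβ and C/EBPδ act in emergency granulopoiesis and in monocytes and macrophages, and C/EBPγ lacks a classical activation domain and modulates its dimer partners. Gfi1 represses monocytic genes and supports the neutrophil fate through co-repressor complexes.

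In the mouse GRCm38 genome (GENCODE vM21), *Cebpa* (ENSMUSG00000034957) lies at chr7:35119293-35121928 on the + strand and *Cebpg* lies near it at chr7:35046422-35056573 on the − strand. *Cebpb* lies at chr2:167688915-167690418 (+), *Cebpd* at chr16:15887286-15891031 (+), *Cebpe* at chr14:54710360-54712174 (−) and *Gfi1* at chr5:107716657-107726036 (−). A gene on the opposite strand overlaps each of them other than *Cebpe*: Gm45091 for *Cebpa*, *Tmem189* for *Cebpb*, *Spidr* for *Cebpd*, Gm45095 for *Cebpg* and A430072P03Rik for *Gfi1*. The methods of the study name Cell Ranger count with default settings and do not mention strand. Whether reads of these partners entered the counts of the members was not checked.

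RefSeq (GRCm38.p6) promoters were matched for 4 of the 6 members. Those of *Cebpa* and *Cebpb* are shown, 250 bases up to the transcript start, because these genes were more than 1.5-fold higher in *Tet2* KO types sorted as Lin-/CD11b+. Capitals mark a TTGCG C/EBP half-site (or CGCAA) in *Cebpa* and TGACG CREB/ATF half-sites (or CGTCA) in *Cebpb*, searched on both strands.

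*Cebpa*, chr7:35119043-35119292 (+): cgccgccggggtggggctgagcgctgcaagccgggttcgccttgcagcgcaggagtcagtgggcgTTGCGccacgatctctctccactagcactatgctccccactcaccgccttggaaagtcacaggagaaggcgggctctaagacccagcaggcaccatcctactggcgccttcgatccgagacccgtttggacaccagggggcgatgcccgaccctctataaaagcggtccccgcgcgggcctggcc
*Cebpb*, chr2:167688665-167688914 (+): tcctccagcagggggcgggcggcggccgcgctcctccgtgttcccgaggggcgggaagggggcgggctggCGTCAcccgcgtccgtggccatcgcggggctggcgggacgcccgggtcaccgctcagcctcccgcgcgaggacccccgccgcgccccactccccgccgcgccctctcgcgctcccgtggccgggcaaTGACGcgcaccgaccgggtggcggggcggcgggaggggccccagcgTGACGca

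The *Cebpa* window held 1 C/EBP half-site, 185 bases before the start, and the *Cebpb* window held 3 CREB/ATF half-sites, at 180, 53 and 7 bases before it. The C/EBP letters occur in 14.52% and the CREB/ATF letters in 17.75% of 32817 promoter windows of this length. A match describes the letters only.

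*Cebpa*, the entry factor of the myeloid path, was highest in basophil-like cells in all 4 libraries. It stood there at 72.3 CPM (interval 55.3 to 92.9) in the WT GMP library and 43.0 CPM (30.1 to 59.6) in the *Tet2* KO GMP library. In the Lin-/CD11b+ sort it stood at 53.3 CPM (34.8 to 78.1) in WT and 123 CPM (97.4 to 153) in *Tet2* KO cells. Basophil-like cells were told apart from the type that came next in every library, by log2 differences of 1.34 and 0.63 in the WT and *Tet2* KO GMP libraries and of 1.19 and 1.99 in the WT and *Tet2* KO Lin-/CD11b+ libraries. There were 56 to 81 basophil-like cells per library, and the 3 with most *Cebpa* UMIs held 19.4% to 23.1% of them. HSPC-like cells had *Cebpa* at 28.5 CPM (WT GMP), 27.8 CPM (*Tet2* KO GMP), 15.8 CPM (WT Lin-/CD11b+) and 31.0 CPM (*Tet2* KO Lin-/CD11b+). The mono-biased and neutro-biased cells lay between 18.3 and 26.2 CPM in all libraries, and monocyte-like cells at 23.4 (WT) and 27.3 CPM (*Tet2* KO). Levels were low in neutrophil-like cells, at 4.45 CPM in WT and 6.86 CPM in *Tet2* KO, and lowest in lymphoid-like cells, at 1.09 and 3.09 CPM. Among neighbouring types in the order of levels, 2 of 3 were told apart in each GMP library, but only 1 of 7 in the WT and 2 of 8 in the *Tet2* KO Lin-/CD11b+ library.

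Thinning each cell to 5000 UMIs removes the effect of depth on detection. At that depth 29.9% and 21.0% of basophil-like cells in the WT and *Tet2* KO GMP libraries held a *Cebpa* UMI, and 26.8% and 43.8% in the Lin-/CD11b+ libraries (unthinned 50.6%, 37.0%, 41.1% and 61.6%). In lymphoid-like cells, which should lack the gene, the share was 0.535% in WT (median depth 13911 UMIs before thinning) and 1.28% in *Tet2* KO (11323 UMIs). The basophil-like shares lie above this background.

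*Cebpe*, the factor of late granule formation, followed the granulocytic line. In neutrophil-like cells of the Lin-/CD11b+ sort it reached 485 CPM (449 to 524) in WT and 481 CPM (444 to 520) in *Tet2* KO. In neutro-biased cells it was at 186 CPM (177 to 195) in the WT GMP library, 131 CPM (126 to 136) in the *Tet2* KO GMP library, 172 CPM (158 to 186) in the WT Lin-/CD11b+ library and 137 CPM (126 to 150) in the *Tet2* KO Lin-/CD11b+ library. Neutrophil-like cells stood above neutro-biased cells by 1.34 to 1.66 (WT, interval) and 1.64 to 1.98 (*Tet2* KO, interval) on the log2 scale. HSPC-like cells had *Cebpe* at 137 CPM (WT) and 117 CPM (*Tet2* KO) in the GMP sort and at 27.8 and 22.8 CPM in the Lin-/CD11b+ sort. Mono-biased cells had 12.6 to 16.6 CPM. At equal depth a *Cebpe* UMI was found in 86.6% (WT) and 86.2% (*Tet2* KO) of neutrophil-like cells, and unthinned in 90.8% and 92.3%. The shares in neutro-biased cells were 53.1% (WT GMP), 41.0% (*Tet2* KO GMP), 53.2% (WT Lin-/CD11b+) and 41.5% (*Tet2* KO Lin-/CD11b+), and unthinned 83.9%, 68.9%, 79.8% and 63.7%. Lymphoid-like cells stood at 1.60% and 1.70%. The 6.19 CPM of WT lymphoid-like cells came almost wholly from 3 cells, which held 94.1% of its UMIs, and likewise all 16 *Cebpe* UMIs of *Tet2* KO basophil-like cells in the Lin-/CD11b+ sort came from 3 cells. In *Tet2* KO pDC-like cells no *Cebpe* UMI was seen in 95 cells, which allows up to 3.16% of cells with a UMI and a level of up to 3.69 CPM.

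*Gfi1*, the repressor that supports the neutrophil fate, was highest in neutro-biased cells of every library and was told apart there from the type that came next. It stood at 19.5 CPM (16.6 to 22.8) in the WT GMP library, 9.50 CPM (8.14 to 11.0) in the *Tet2* KO GMP library, 16.5 CPM (12.4 to 21.5) in the WT Lin-/CD11b+ library and 18.5 CPM (14.4 to 23.4) in the *Tet2* KO Lin-/CD11b+ library. The *Tet2* KO GMP library was the low one of the 4, and the other intervals overlap. Neutrophil-like cells, which are later, had 4.45 CPM (WT) and 9.92 CPM (*Tet2* KO). In mono-biased cells the level was 0.95 to 2.17 CPM and the share at equal depth at most 1.67%. That is within or below the 1.28% to 2.14% of lymphoid-like cells, which stood at 2.55 CPM (WT) and 2.06 CPM (*Tet2* KO). Whether lymphoid-like cells lack *Gfi1* was not checked, so these low levels are not read as background or as expression. No *Gfi1* UMI was seen in basophil-like cells of the GMP sort, 0 of 77 cells in WT and 0 of 81 in *Tet2* KO, which allows 3.56 and 3.59 CPM. The same held for WT monocyte-like cells (0 of 125, which allows up to 2.4% of cells with a UMI and 3.05 CPM) and for pDC-like cells (0 of 96 in WT and 0 of 95 in *Tet2* KO).

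*Cebpb*, the factor of emergency granulopoiesis and of monocytes, was highest in monocyte-like cells, at 40.7 CPM (29.0 to 55.4) in WT and 64.0 CPM (56.0 to 72.7) in *Tet2* KO. In *Tet2* KO cells this was told apart from mono-biased cells, which came next at a log2 distance of 0.92, but in WT not from neutrophil-like cells at 29.7 CPM. Mono-biased cells had 10.6 CPM (WT GMP), 15.4 CPM (*Tet2* KO GMP), 17.2 CPM (WT Lin-/CD11b+) and 33.9 CPM (*Tet2* KO Lin-/CD11b+). Both Lin-/CD11b+ libraries lay above both GMP libraries, and within each sort the *Tet2* KO library was the higher one. HSPC-like cells had 4.60 to 5.30 CPM, with 2.11% to 3.05% of cells holding a UMI at equal depth (4.44% to 8.54% unthinned), which is close to the 2.55% to 2.67% of lymphoid-like cells. Whether lymphoid-like cells lack *Cebpb* was not checked, so its low level in HSPC-like cells is not read as background or as expression.

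*Cebpd*, which is induced by stress and cytokines, was highest in neutrophil-like cells, at 120.2 CPM (102 to 140) in WT and 151 CPM (131 to 174) in *Tet2* KO. Monocyte-like cells came next, at 88.4 CPM (70.8 to 109) in WT and 119.9 CPM (109 to 132) in *Tet2* KO, and were told apart from neutrophil-like cells in both libraries by 0.44 and 0.33 on the log2 scale. In mono-biased cells *Cebpd* stood at 53.3 CPM (WT GMP), 44.5 CPM (*Tet2* KO GMP), 61.4 CPM (WT Lin-/CD11b+) and 72.1 CPM (*Tet2* KO Lin-/CD11b+). *Cebpd* was found in 44.4% and 53.8% of WT and *Tet2* KO neutrophil-like cells at equal depth, against 1.60% and 4.26% of lymphoid-like cells (unthinned 65.5% and 71.5%, against 2.67% and 9.79%). The level in lymphoid-like cells also differed, with 2.18 CPM in WT and 10.6 CPM in *Tet2* KO, but from only 6 and 31 UMIs. Their summed monocyte markers stood at 188 and 531 CPM and their neutrophil markers at 1100 and 174 CPM, and the part of these was not tested.

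*Cebpg*, the modulating partner, had the fewest neighbouring types told apart among the members. It stood at 43.7 and 59.6 CPM in WT and *Tet2* KO monocyte-like cells, at 30.8 and 49.2 CPM in pDC-like cells, at 47.9 CPM in *Tet2* KO DC-like cells and at 17.1 and 19.1 CPM in neutrophil-like cells. Lymphoid-like cells were at 13.1 CPM (WT) and 20.6 CPM (*Tet2* KO), with a share at equal depth of 5.88% and 8.09%, so this gene has no clear negative type here. No neighbouring types were told apart in either GMP library or in the WT Lin-/CD11b+ library, and 2 of 8 were in the *Tet2* KO Lin-/CD11b+ library.

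**Figure D1:**
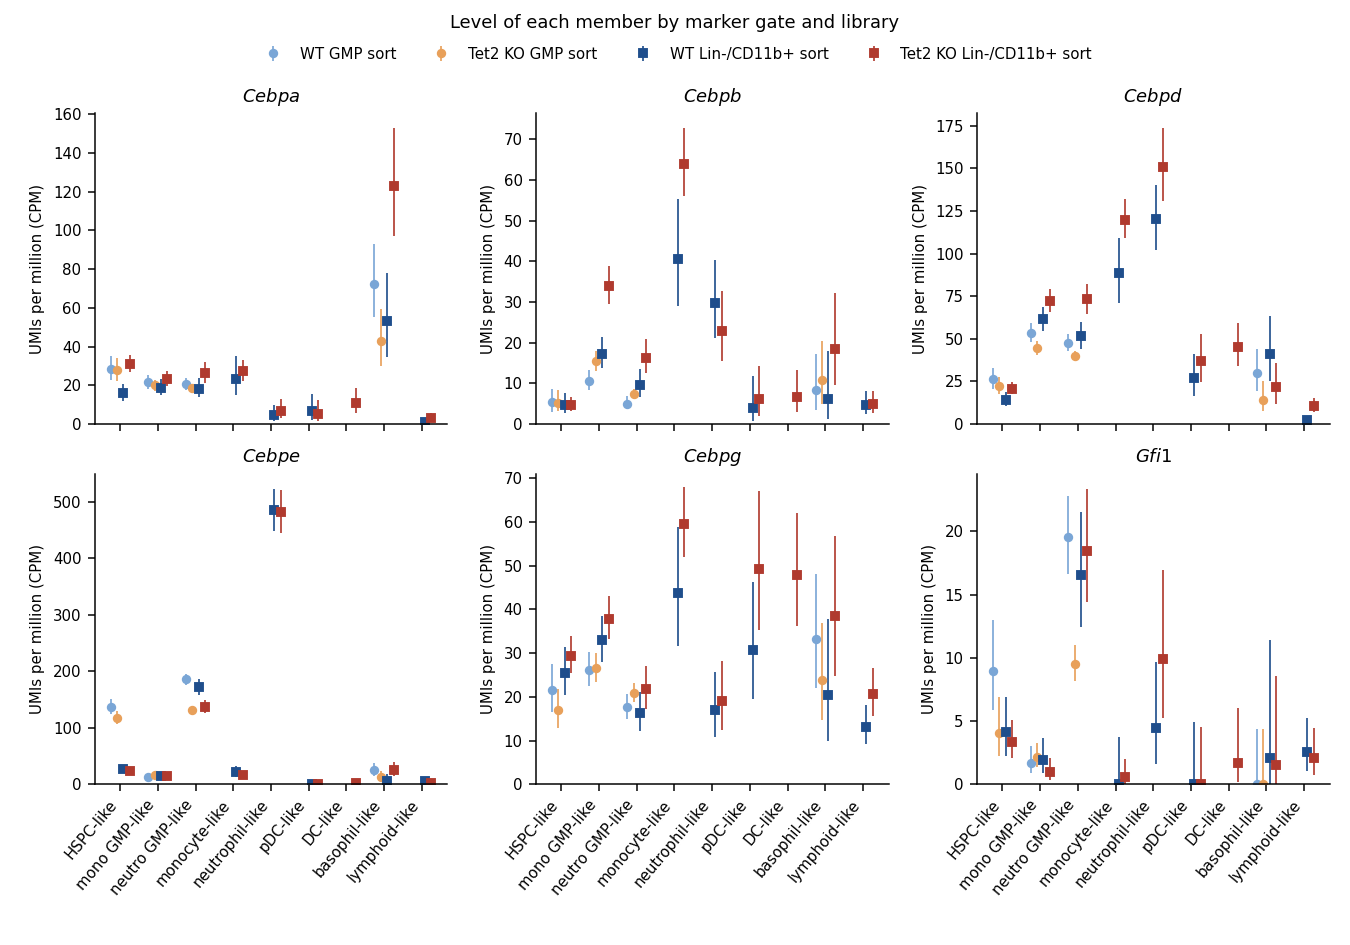
Level of each member in CPM by cell type, 1 panel per gene, in the WT and *Tet2* KO libraries of the GMP sort (circles) and the Lin-/CD11b+ sort (squares), with exact 95% Poisson intervals as bars. *Cebpe* peaks in neutrophil-like cells (485 and 481 CPM), *Gfi1* in neutro-biased cells, *Cebpb* in monocyte-like cells and *Cebpa* in basophil-like cells.

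Genotypes were compared within each sort and type. Over the 6 members this gives 72 ratios, of which 36 rest on at least 100 UMIs in both libraries together. Of these, 19 had an interval that leaves out 0 and 5 passed 1.5-fold, 4 of them higher and 1 lower in *Tet2* KO. How many of all genes had an interval that leaves out 0 was not counted, so the 19 are not read as particular to the members. In the GMP sort, members passed 1.5-fold in 0 of 4 HSPC-like ratios, where 4.64% of all genes with as many UMIs passed, in 0 of 5 mono-biased ratios (all genes 4.27%) and in 1 of 6 neutro-biased ratios (all genes 4.92%). No basophil-like ratio of the GMP sort reached 100 UMIs (all genes 7.57%). In the Lin-/CD11b+ sort, members passed in 1 of 4 HSPC-like ratios (all genes 4.3%), in 1 of 5 mono-biased ratios (4.81%) and in 0 of 5 neutro-biased ratios (5.31%). They passed in 1 of 4 monocyte-like ratios (10.5%), 0 of 2 neutrophil-like ratios (10.5%) and the only basophil-like ratio (11.0%), and no ratio reached 100 UMIs in pDC-like (6.24%) or lymphoid-like cells (21.0%). That basophil-like ratio, of *Cebpa*, reached 100 UMIs only through the high *Tet2* KO library (26 WT and 80 *Tet2* KO UMIs). The *Cebpa* ratio of GMP-sorted basophil-like cells (61 and 36 UMIs) fell short of it. The basophil-like entry in these counts is therefore not read as a result. With 1 to 6 members per comparison, these counts cannot be set apart from the shares of all genes.

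*Cebpa* was higher in *Tet2* KO in 3 types sorted as Lin-/CD11b+ (HSPC-like, basophil-like and neutro-biased) and in none of the GMP sort. It was not told apart in mono-biased Lin-/CD11b+ cells (0.32, −0.07 to 0.71) or in monocyte-like cells (0.22, −0.44 to 0.95). In Lin-/CD11b+ HSPC-like cells the level was 15.8 CPM in WT and 31.0 CPM in *Tet2* KO, a log2 ratio of 0.97 (0.53 to 1.43). In the GMP sort the same type gave 28.5 and 27.8 CPM, a log2 ratio of −0.04 (−0.47 to 0.40). In these Lin-/CD11b+ cells, the summed stem markers were level at 843 CPM (WT) and 839 CPM (*Tet2* KO), the summed neutrophil markers stood at 123 and 258 CPM and the dendritic markers at 57.7 and 226 CPM, and their part in the result was not tested. In basophil-like cells the log2 ratio of *Cebpa* was 1.20 (0.55 to 1.90) in the Lin-/CD11b+ sort, from 26 and 80 UMIs, and −0.75 (−1.39 to −0.13) in the GMP sort, from 61 and 36 UMIs. Basophil-like cells of the Lin-/CD11b+ sort also differed in summed neutrophil markers (139 CPM in WT, 1563 CPM in *Tet2* KO, with *Mmp8* and *Csf3r* at 0) and plasma cell markers (2113 and 147 CPM), while their basophil markers stood at 40762 and 45522 CPM. The part of these in the result was not tested. In neutro-biased cells of the Lin-/CD11b+ sort *Cebpa* was also higher in *Tet2* KO, with a log2 ratio of 0.52 whose interval begins at 0.04, but under 1.5-fold. In those cells the summed monocyte markers stood at 114 CPM (WT) and 351 CPM (*Tet2* KO), the neutrophil markers at 2342 and 3121 CPM and the dendritic markers at 26.7 and 55.9 CPM, and their part in the result was not tested.

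*Cebpe* and *Gfi1*, the granulocytic pair, were lower in *Tet2* KO neutro-biased cells of the GMP sort. The log2 ratio of *Gfi1* was −1.04 (−1.36 to −0.72), a fold of 0.486, and that of *Cebpe* −0.50 (−0.60 to −0.41), a fold of 0.706. In the Lin-/CD11b+ sort the same type gave −0.32 (−0.50 to −0.15) for *Cebpe* and 0.16 (−0.37 to 0.70) for *Gfi1*, so only *Cebpe* was lower in *Tet2* KO in both sorts. The share of neutro-biased cells with a *Gfi1* UMI at equal depth was 8.62% (WT) and 5.43% (*Tet2* KO) in the GMP sort, and unthinned 29.1% and 12.8%. In the Lin-/CD11b+ sort the shares of 11.5% and 7.27% ran against the CPM, so no order is read from them. In neutro-biased cells of the GMP sort the summed monocyte markers were 54.7 CPM in WT and 120.2 CPM in *Tet2* KO, with all 5 of the 8 that could be measured higher, the stem markers 109.7 and 80.6 CPM, and the neutro-biased markers 36039 and 33610 CPM. The dendritic markers *Cd209a*, *Xcr1* and *Batf3* were at 0. The part of these markers in the result was not tested. *Cebpe* was also lower in *Tet2* KO HSPC-like cells of the GMP sort, at −0.23 (−0.43 to −0.03), and higher in mono-biased cells of that sort, at 0.40 (0.02 to 0.79). With the mean over cells these ratios were −0.10 and 0.24. In the mono-biased cells the summed neutrophil markers stood at 37.95 CPM (WT) and 59.8 CPM (*Tet2* KO). Their monocyte markers stood at 509 and 702 CPM and their neutro-biased markers at 15866 and 15563 CPM. The part of these markers was not tested either. In neutrophil-like cells the *Cebpe* ratio was −0.01 (−0.17 to 0.15).

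*Cebpb* was higher in *Tet2* KO in all 4 of its ratios that rest on 100 UMIs, each told apart from no difference. In mono-biased cells the log2 ratio was 0.98 (0.60 to 1.36) in the Lin-/CD11b+ sort, a fold of 1.97, and 0.54 (0.13 to 0.96) in the GMP sort. In monocyte-like cells it was 0.65 (0.16 to 1.18), a fold of 1.57 (0.52 and under 1.5-fold with the mean over cells), and in neutro-biased cells of the GMP sort 0.56 (0.04 to 1.10). The direction was the same in both sorts for mono-biased cells, and the size passed 1.5-fold in the Lin-/CD11b+ sort only. In that sort the summed monocyte markers of mono-biased cells stood at 1172 CPM (WT) and 1577 CPM (*Tet2* KO), their neutrophil markers at 120.5 and 181 CPM and their dendritic markers at 12.96 and 69.1 CPM. In monocyte-like cells the neutrophil markers stood at 426 and 2095 CPM, the dendritic markers at 288 and 1135 CPM and the monocyte markers at 6007 and 6923 CPM, and the part of all these in the *Cebpb* result was not tested.

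*Cebpd* passed 1.5-fold in 0 of its 8 ratios and its direction differed between the sorts in 2 types. In mono-biased cells the log2 ratio was −0.26 (−0.46 to −0.06) for GMP-sorted and 0.23 (0.01 to 0.45) for Lin-/CD11b+ cells, and in neutro-biased cells −0.26 (−0.44 to −0.08) and 0.50 (0.22 to 0.78). With types taken from Leiden clusters the last value was 0.01, so the opposite direction in neutro-biased cells was not seen there. Beside it stand the higher monocyte and neutrophil markers of *Tet2* KO neutro-biased Lin-/CD11b+ cells given above, whose part was not tested. In the Lin-/CD11b+ sort *Cebpd* was also higher in *Tet2* KO monocyte-like cells, at 0.44 (0.10 to 0.79). HSPC-like cells of that sort gave 0.56 (0.07 to 1.06), and 0.30 with the mean over cells. Neutrophil-like cells gave 0.33 (0.02 to 0.64), and 0.14 with TMM factors. HSPC-like cells of the GMP sort gave −0.24 (−0.71 to 0.24). *Cebpg* differed between genotypes in none of its 7 ratios beyond counting error, and the widest interval among them, −0.88 to 0.19 in HSPC-like cells of the GMP sort, does not show that the levels were alike.

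**Figure D2:**
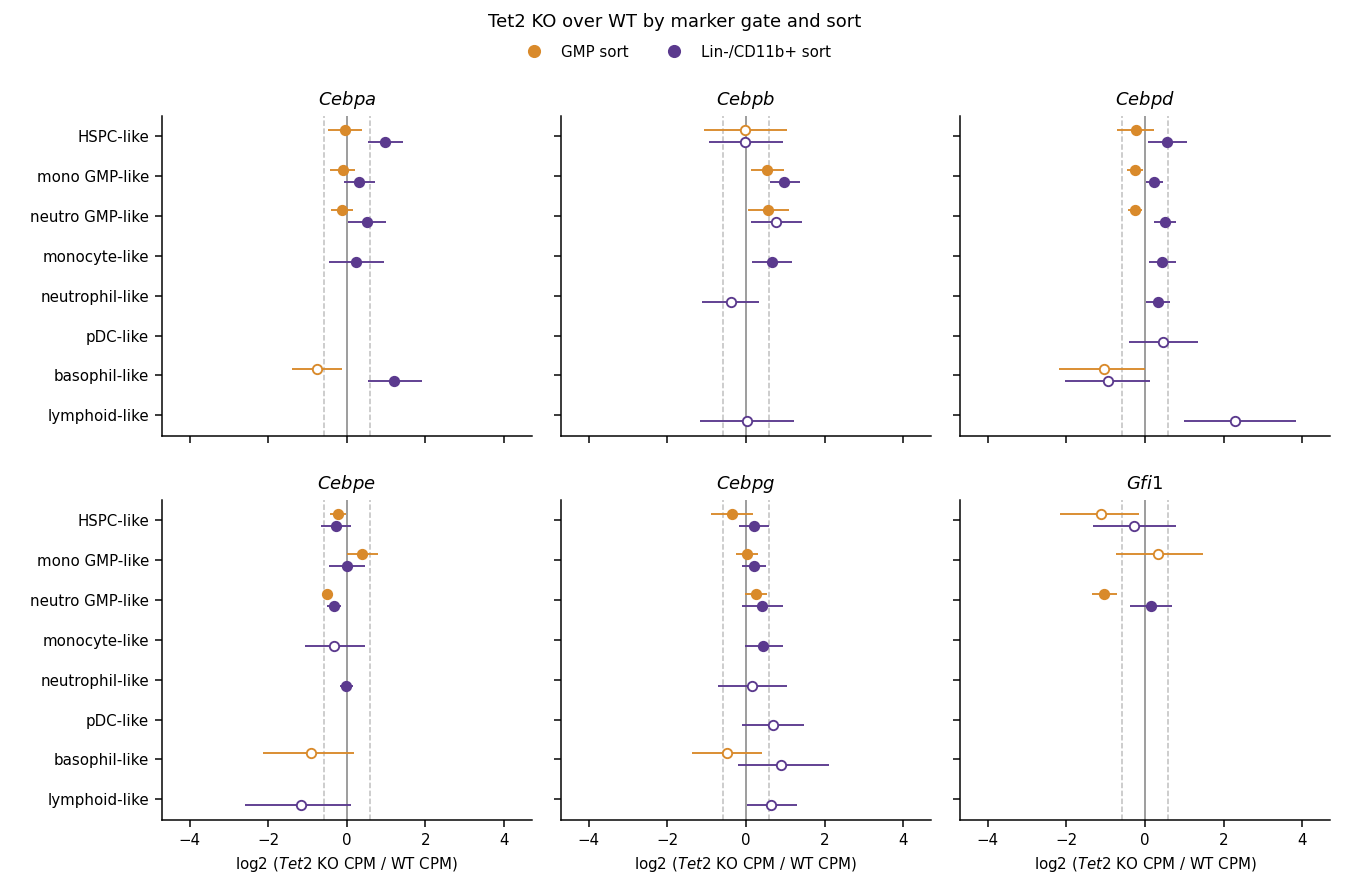
Log2 ratio of *Tet2* KO over WT CPM for each member by cell type, in the GMP sort (orange) and the Lin-/CD11b+ sort (purple), with 95% intervals as bars and 1.5-fold as dashed lines. Filled points rest on at least 100 UMIs, open points on 20 to 99, and ratios under 20 UMIs are not drawn. *Gfi1* in neutro-biased cells of the GMP sort lies at −1.04, and *Cebpb* in mono-biased cells of the Lin-/CD11b+ sort at 0.98.

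Between sorts of the same genotype, members differed within a type as well. *Cebpe* in HSPC-like cells was higher in the GMP sort by 2.30 (1.98 to 2.64) on the log2 scale in WT and by 2.36 (2.08 to 2.64) in *Tet2* KO, beside the higher *Elane* of those cells. *Cebpb* in mono-biased cells was lower in the GMP sort in both genotypes, by −0.70 (−1.17 to −0.23) in WT and −1.14 (−1.45 to −0.83) in *Tet2* KO. Their summed monocyte markers stood at 509 (WT) and 702 CPM (*Tet2* KO) in the GMP sort and at 1172 and 1577 CPM in the Lin-/CD11b+ sort. The part of these was not tested. *Gfi1* in neutro-biased cells was lower in the GMP sort in *Tet2* KO, at −0.96 (−1.37 to −0.54). *Cebpa* in HSPC-like cells was higher in the GMP sort in WT, at 0.85 (0.34 to 1.37), and not told apart in *Tet2* KO, at −0.16.

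As a stand-in for granulocytic maturation, neutro-biased and neutrophil-like cells of the Lin-/CD11b+ sort were ordered by late over early granule markers. They were cut in 4 stages of equal cell number. Stages 1 and 2 held neutro-biased cells only, with median orders of −7.94 and −7.10 in WT and −8.05 and −6.94 in *Tet2* KO. The step between them is therefore read as one of the marker order, not of maturation. *Cebpe* stood lowest in stage 2 and highest in the last. Its levels over stages 1 to 4 were 182, 141, 247 and 521 CPM in WT and 144, 107, 278 and 515 CPM in *Tet2* KO. *Cebpd* was also highest in the last stage, with 54.4, 48.4, 73.9 and 119 CPM in WT and 62.4, 60.9, 117 and 166 CPM in *Tet2* KO. *Cebpa* was lowest in the last stage in both genotypes, at 3.63 CPM in WT and 4.33 CPM in *Tet2* KO, after 14.5, 23.1 and 14.1 CPM in WT and 29.7, 28.7 and 14.6 CPM in *Tet2* KO. *Gfi1* stood at 13.8, 18.6, 12.9 and 5.44 CPM in WT and at 22.5, 17.2, 11.4 and 12.98 CPM in *Tet2* KO, with wide intervals in the last stage (2.00 to 11.8 and 5.94 to 24.6). In both genotypes stage 4 was thus the lowest for *Cebpa* and the highest for *Cebpe* and *Cebpd*.

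Along monocytic maturation, ordered likewise within mono-biased and monocyte-like cells, *Cebpb* was higher in each later stage in both genotypes. It stood at 12.9, 22.9, 31.1 and 44.4 CPM in WT and at 27.3, 37.9, 50.1 and 67.7 CPM in *Tet2* KO, which was the higher genotype in all 4 stages, although the intervals overlap in stages 2, 3 and 4 (26.3 to 70.2 and 57.1 to 79.6 in the last). *Cebpg* stood at 29.7, 33.0, 44.0 and 54.3 CPM in WT and at 29.3, 42.8, 50.5 and 63.0 CPM in *Tet2* KO, and so was highest late as well. *Cebpd* stood at 53.5, 65.9, 91.2 and 88.8 CPM in WT and at 60.6, 73.8, 100.3 and 129.7 CPM in *Tet2* KO. *Cebpe* had no such order, at 12.9 to 25.7 CPM in WT and 13.1 to 18.2 CPM in *Tet2* KO. *Cebpa* did not rise with each stage, but its last stage was the highest in both genotypes. It stood at 17.2, 20.7, 17.2 and 34.5 CPM in WT and at 23.4, 26.1, 22.0 and 28.0 CPM in *Tet2* KO, with overlapping intervals. The stages were cut over both libraries together, and the last monocytic stage held 60 WT and 275 *Tet2* KO cells, at lower depth than the first (in WT a median of 6087.5 against 14101 UMIs).

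**Figure D3:**
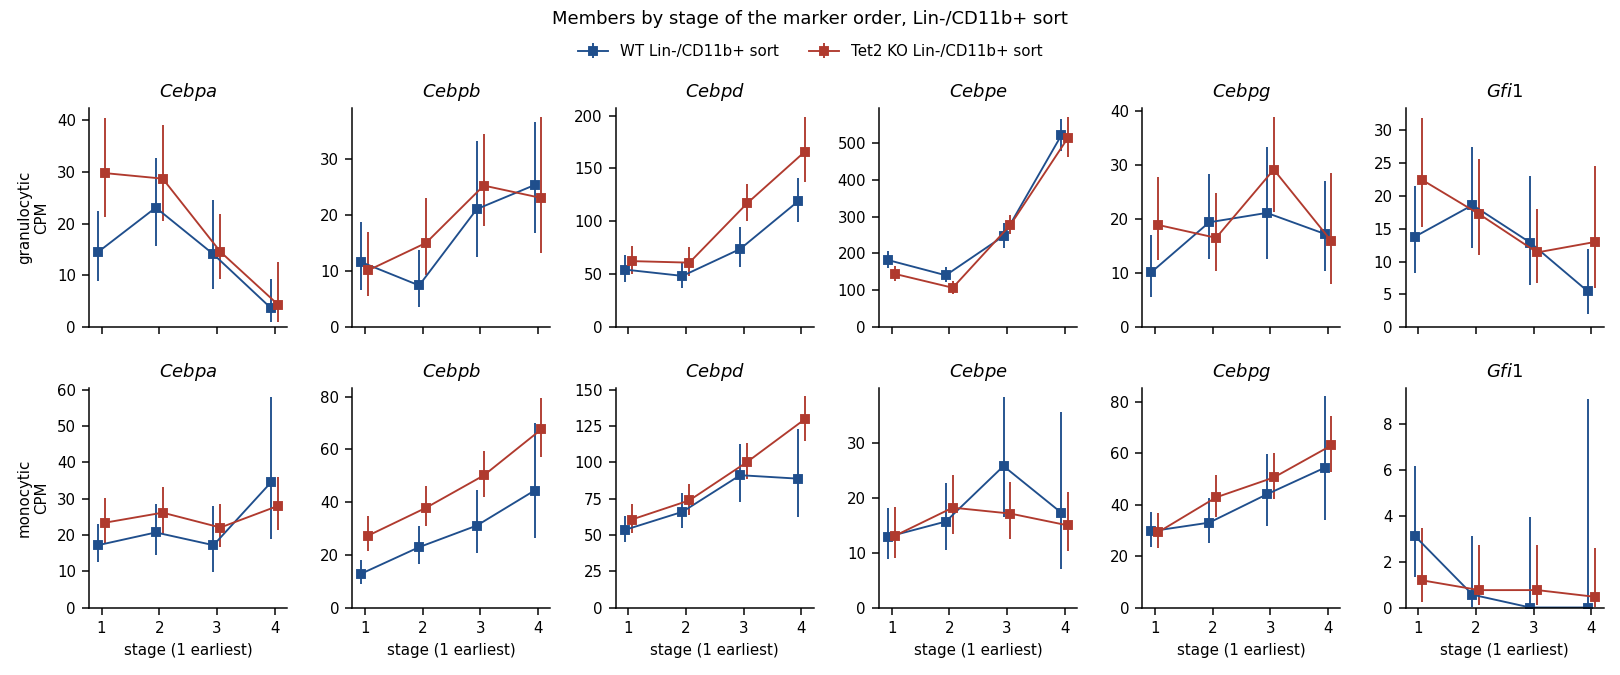
Level of each member in CPM by stage of the marker order, granulocytic and monocytic, in the Lin-/CD11b+ sort, with WT in blue, *Tet2* KO in red and exact 95% Poisson intervals as bars. *Cebpe* is highest in the last granulocytic stage and *Cebpb* in the last monocytic stage of both genotypes.

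Co-detection of the 15 pairs of members was counted at 5000 UMIs per cell and set against the number expected if both genes were found independently. Over all cells of a library, 10 of the 60 values had an interval above 1 and 2 below 1. Pairs of other genes were not counted, here or within types, so such counts are not read as particular to the members. *Cebpe* and *Gfi1* were found together in 23 cells (expected 17.3) in the WT GMP library, in 47 cells (27.0) in the *Tet2* KO GMP library, in 21 cells (7.95) in the WT Lin-/CD11b+ library and in 19 cells (6.90) in the *Tet2* KO Lin-/CD11b+ library. The ratios were 1.33 (0.845 to 1.98), 1.74 (1.28 to 2.30), 2.64 (1.64 to 4.03) and 2.75 (1.66 to 4.29), so the WT GMP library alone was not told apart from 1 in this draw, while its mean over all possible draws was 1.79. That mean was 1.64, 2.57 and 3.57 in the other libraries, and another draw gave 4.55 in the *Tet2* KO Lin-/CD11b+ library. *Cebpd* and *Cebpe* were found together more often than expected in the Lin-/CD11b+ sort, at 1.71 (1.41 to 2.05) in WT and 1.60 (1.35 to 1.88) in *Tet2* KO, and near 1 in the GMP sort, at 0.853 and 1.03. *Cebpb* and *Cebpd* stood at 0.998 (WT GMP), 1.27 (*Tet2* KO GMP), 1.04 (WT Lin-/CD11b+) and 1.74 (*Tet2* KO Lin-/CD11b+), and the last alone was told apart from 1 (1.44 to 2.08).

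Such ratios over a whole library hold the differences between cell types. Within types, 336 of 375 pair values had a ratio, 97 were expected in at least 5 cells, and only 2 of those 97 had an interval that leaves out 1. These were *Cebpd* with *Cebpg* in mono-biased cells of the WT GMP library, at 1.80 (1.14 to 2.69) but 1.20 over all draws, and *Cebpe* with *Gfi1* in neutro-biased cells of the *Tet2* KO GMP library, at 1.43 (1.01 to 1.95) and 1.29 over all draws. In neutro-biased cells the *Cebpe* and *Gfi1* ratio was 0.814 (WT GMP), 1.43 (*Tet2* KO GMP), 1.20 (WT Lin-/CD11b+) and 1.03 (*Tet2* KO Lin-/CD11b+) in this draw. Its mean over all draws was 1.16, 1.29, 1.24 and 1.33, so no difference between the libraries is read from the single draw. Of the cells with a *Gfi1* UMI there, 43.2%, 58.5%, 64.0% and 42.9% also held a *Cebpe* UMI in this draw. *Cebpd* and *Cebpe* in neutro-biased cells lay between 0.951 and 1.08, so their excess over the whole Lin-/CD11b+ libraries was not seen within this type. The mean number of members found per thinned cell was lowest in lymphoid-like cells, at 0.144 (WT) and 0.191 (*Tet2* KO), and highest in neutrophil-like cells, at 1.54 and 1.72. No cell held 5 or 6 of them.

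**Figure D4:**
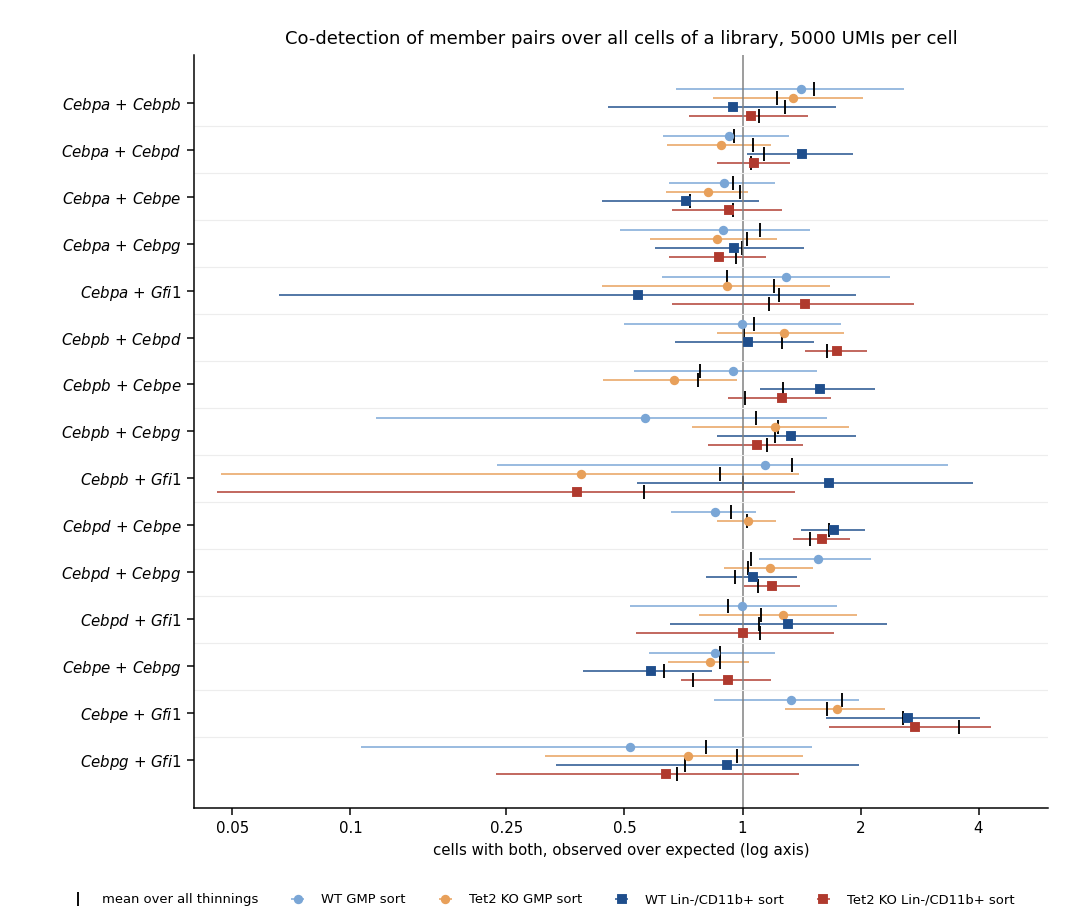
Observed over expected co-detection of the 15 pairs of members over all cells of each library, on a log axis, with points and 95% intervals from 1 thinning to 5000 UMIs and black ticks for the mean over all thinnings. *Cebpe* with *Gfi1* lies above 1 in 3 of the 4 libraries by interval, at 1.74, 2.64 and 2.75.

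Likeness to a member was taken as Pearson's r of log2(CPM + 10) across the 25 library and type groups. It covered 6074 genes with at least 1000 UMIs in all, with the gate markers and the members left out. The genes most like *Cebpa* were *Rnf2* (0.88), Gm17745 (0.87) and *Arpc1a* (0.87). Those most like *Cebpb* were *Gpr141* (0.88), *Sirpa* (0.88) and *Ppp2r5a* (0.87). For *Cebpd* they were *Mfsd14b* (0.94), *Prdx5* (0.93) and *Mapk3* (0.92), and for *Cebpe* *Mrgpra2b* (0.97), *Ccdc125* (0.88) and *Tmem216* (0.87). For *Cebpg* they were *Plec* (0.90), *Tmsb10* (0.90) and *Dna2* (0.90), and for *Gfi1* *B4galt6* (0.85), *Slc28a2* (0.83) and *Cldn15* (0.80). Among the members themselves, *Cebpe* and *Gfi1* were most alike (0.77), followed by *Cebpb* and *Cebpd* (0.74), while *Cebpg* ran against *Gfi1* (−0.59) and *Cebpe* (−0.54). Groups share libraries and depth, and these values are descriptions.

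Partners and targets were read from lists chosen with earlier results of these data known. The 12 relatives, dimer partners and inhibitors of C/EBP factors gave 64 measured ratios over 12 comparisons, of which 0 were more than 1.5-fold higher and 11 more than 1.5-fold lower in *Tet2* KO (17.19%), beside 6.49% of all genes. *Fos*, a leucine zipper protein of AP-1, accounted for 7 of the 11, and *Jun*, its partner, for 2. *Fos* stood at 663 CPM (WT) and 277 CPM (*Tet2* KO) in mono-biased cells of the GMP sort, at 773 and 360 CPM in the Lin-/CD11b+ sort and at 1450.5 and 723 CPM in monocyte-like cells. Both are immediate early genes. The list's median ran from −0.38 to 0.05, against −0.05 to 0.34 for all genes. Of the 8 Gfi1 relatives and co-repressors, 2 of 41 ratios were higher and 0 lower (4.878%).

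Of the 12 myeloid regulators, 10 of 88 ratios were higher and 9 lower (21.59%), beside 6.49% of all genes. Lymphoid-like cells, where 21.0% of all genes passed, held 5 of the higher and 1 of the lower ratios (2 and 1 with TMM factors). In this list 2 of the 12, *Irf8* among them, are markers of the gate. *Egr1*, an early response gene, was lower in 6 of 10, *Id2*, an inhibitor of helix-loop-helix factors, was higher in 3 of 8, and *Irf8*, a monocyte and dendritic factor, was higher in 3 of 10. Of the 13 known C/EBP-dependent genes, 32 of 105 ratios were higher and 11 lower (40.95%), beside the same 6.49% of all genes. Here 9 of the 13 are markers of the gate. *Ltf*, *Lcn2*, *Ngp* and *Camp*, proteins of late neutrophil granules, were higher in 3 of 5, 6 of 10, 4 of 8 and 3 of 8 ratios, and *Lcn2*, *Ngp* and *Camp* were lower in 2, 3 and 2. In the Lin-/CD11b+ sort the whole list had 1 higher and 4 lower in pDC-like, 1 and 5 in lymphoid-like, 6 and 0 in basophil-like, and 2 and 1 in neutrophil-like cells. Summed neutrophil markers stood at 814 (WT) and 83.7 CPM (*Tet2* KO), 1100 and 174 CPM, and 139 and 1563 CPM in the first 3 types. Their part was not tested. *Lyz2*, lysozyme, was higher in 4 of 12.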

How the data were processed

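The deposited files hold UMI counts per gene and cell from 10x 3′ libraries, made by the authors from their reads; the submitters' processing notes name Cell Ranger 3.1.0, Seurat and mm10, with no role given. The counts were used as deposited, with cells as deposited (lowest depth 5003 UMIs). Cells were named by a marker gate that excluded the members; its scoring rule was chosen after marker levels, not member levels, had been seen. The members and lists were chosen with earlier results of these data known. Named genes were the members, the 3 genes most like each, and list genes past 1.5-fold in one direction in both sorts or in 2 types of one sort, at most 6 per list. Levels are CPM of summed UMIs. Detection used cells thinned to 5000 UMIs (seed 1). Intervals are exact Poisson, binomial or conditional binomial. Doublets were kept. Background shares cover genes with at least 100 UMIs. The ratio computation was tested on simulated data. Python 3.11.15, numpy 2.4.6, pandas 2.3.3, scipy 1.17.1, scanpy 1.11.5, leidenalg 0.10.2 and matplotlib 3.10.9 were used, with edgeR 4.0.16 in R 4.3.3 for TMM factors. Alternatives were TMM, the mean over cells, Leiden clusters, a wider gate margin, and leaving out the 3 cells with most UMIs of a gene, cells at or over 5% mitochondrial counts or the 5% of cells with most UMIs. For detection they were all UMIs, seed 2 and, added after seeing the data, the mean over all thinnings.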

Additional observations from a re-analysis of the deposited data

Results flagged for a closer look

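The genotype ratio of some members differed between sorts or types beyond counting error. Each value is a difference of log2 ratios of *Tet2* KO over WT, picked because the 2 ratios lie on opposite sides of 0 with intervals that leave out 0, and with 1 library per group the difference was not tested. *Cebpa* in basophil-like cells had a ratio of −0.75 in the GMP sort and 1.20 in the Lin-/CD11b+ sort, a difference of 1.95, from 26 to 80 UMIs per library. *Cebpd* differed between the sorts by 0.49 in mono-biased cells and by 0.76 in neutro-biased cells, lower in *Tet2* KO in the GMP sort and higher in the Lin-/CD11b+ sort. With Leiden clusters the Lin-/CD11b+ ratio in neutro-biased cells was 0.01, and the opposite direction was lost. *Cebpe* in the GMP sort was lower in *Tet2* KO HSPC-like cells and higher in mono-biased cells, a difference of 0.62. Between mono-biased and neutro-biased cells of the GMP sort, the *Cebpe* ratios differed by −0.90, being higher and lower in *Tet2* KO.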

How the results depend on the processing

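No paired analysis was possible because there is 1 library per genotype and sort and no test. None of the 19 genotype ratios told apart from 0 changed sign under these alternatives. Ratios near 0 did, in *Cebpa* in HSPC-like cells of the GMP sort (−0.04, and 0.02 with TMM), *Cebpe* in mono-biased Lin-/CD11b+ cells (0.01, and −0.27 with a wider margin) and *Cebpg* in mono-biased cells of both sorts. *Cebpe* with *Gfi1* in neutro-biased cells of the WT GMP library was 0.814 in the report and 1.08 to 1.19 with all UMIs, another seed or all thinnings. The count of members past 1.5-fold was 5, and it was 9 without the 3 cells with most UMIs of the gene, 7 with Leiden clusters or without the 5% of cells with most UMIs, 6 with TMM factors, 4 with the mean over cells and 5 under the other alternatives. The *Gfi1* ratio in neutro-biased cells of the GMP sort lay between −0.96 and −1.05 throughout. The *Cebpb* ratio in monocyte-like cells was 0.52 with the mean over cells, which is under 1.5-fold. With another thinning seed, *Cebpd* with *Cebpe* over the *Tet2* KO Lin-/CD11b+ library was 1.33 (1.60 in the report) and *Cebpe* with *Gfi1* was 4.55 (2.75). With no minimum of UMIs, 38.9% of all genes passed 1.5-fold (6.49% with it), and the list counts were 51 (C/EBP relatives), 27 (Gfi1 relatives), 47 (myeloid regulators) and 72 (C/EBP-dependent genes), against 11, 2, 19 and 43. TMM gave 1 for the Gfi1 relatives. TMM moved the median of all genes by −0.19 in neutrophil-like and −0.33 in lymphoid-like cells, where the *Cebpe* ratio in neutrophil-like cells became −0.21 (−0.01 in the report). With Leiden clusters the *Cebpd* ratio in neutro-biased cells of the Lin-/CD11b+ sort was 0.01, against 0.50, and that of *Cebpe* was −0.55, against −0.32. Under Leiden clusters 26 of 150 CPM values moved beyond their interval. Counts near the 100 UMI minimum, such as the *Cebpa* ratio in basophil-like cells, are limited by depth. The causes of these shifts were not tested.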

Other observations

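In pDC-like cells *Cebpd* stood at 26.8 CPM (WT) and 36.9 CPM (*Tet2* KO), and *Cebpa*, *Cebpb*, *Cebpe* and *Gfi1* at 6.69 CPM or less. In *Tet2* KO DC-like cells, for which WT had 37 cells and was not used, *Cebpd* stood at 45.4 CPM, *Cebpa* at 10.9 CPM and *Cebpb* at 6.72 CPM.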
